A study of Mus musculus with 12 samples.

Results

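Transcripts of the prolactin and growth hormone receptors, their shared kinase, the STAT proteins it acts on and the feedback inhibitors of the pathway were compared between pituitaries of pregnant and virgin mice. The set held 10 genes, namely *Prlr*, *Ghr*, *Jak2*, *Stat3*, *Stat5a*, *Stat5b*, *Socs1*, *Socs2*, *Socs3* and *Cish*, named as genes of this pathway. The array annotation named 18 probes for 9 of the 10 genes, while *Prlr* had no named probe in it and was not analysed here. Probes had to reach a detection p-value under 0.05 on 4 or more of the 12 arrays. This left 11 probes for 7 of the 10 genes, among 10802 named genes and 18626 probes tested in the series.

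The Pregnant group held 8 females in late gestation, at e15.5. The Non-pregnant group consisted of 4 virgins of the same cohort. All were wild-type mice of the c57BL6/J strain, 8 weeks old at allocation and drawn from 4 litters, although the litter of each animal was not given. The whole gland was taken, and total RNA of each animal was hybridised to 1 MouseWG-6 v2.0 BeadChip array. Each array thus averaged every cell type of the anterior, intermediate and posterior lobes, so fewer cells of a type and less RNA per cell could not be told apart. Replicates were separate animals, and no batch or scan order was given for them.

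Prolactin and growth hormone act through related single-pass receptors that carry no enzyme of their own. Binding of the hormone activates the attached kinase JAK2, which phosphorylates STAT5 and, less strongly, STAT3, and these move to the nucleus and switch on target genes. Among the targets are *Cish* and the *Socs* genes, whose products bind the receptor or the kinase and damp the signal, so that the level of their transcripts is often read as a record of recent signalling. In the pituitary, lactotrophs make prolactin and somatotrophs make growth hormone, and the gland also carries receptors for them.

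The binding motif of STAT5 and of STAT3 is a palindrome, TTCNNNGAA, which reads alike on both strands and overlaps no other motif searched. It was looked for in RefSeq promoter windows of GRCm38.p6, each running from 250 bases before to 50 bases after a gene start. Of 32851 such windows 8.3% held the motif at least once and 0.457% at least 2 times. The 9 members with a window had 14 windows in all, and 3 of these held it. The windows of the feedback genes *Cish* and *Socs3* are shown because these genes are the classical transcriptional outputs of STAT5 and STAT3, with the motif in capitals.
Cish chr9:107296409-107296708, plus strand: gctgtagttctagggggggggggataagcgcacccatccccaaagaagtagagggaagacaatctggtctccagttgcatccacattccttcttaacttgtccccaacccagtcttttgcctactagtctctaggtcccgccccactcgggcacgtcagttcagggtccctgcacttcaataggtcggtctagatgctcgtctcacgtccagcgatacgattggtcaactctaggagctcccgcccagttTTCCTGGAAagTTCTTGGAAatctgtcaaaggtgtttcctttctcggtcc
Socs3 chr11:117969317-117969616, minus strand: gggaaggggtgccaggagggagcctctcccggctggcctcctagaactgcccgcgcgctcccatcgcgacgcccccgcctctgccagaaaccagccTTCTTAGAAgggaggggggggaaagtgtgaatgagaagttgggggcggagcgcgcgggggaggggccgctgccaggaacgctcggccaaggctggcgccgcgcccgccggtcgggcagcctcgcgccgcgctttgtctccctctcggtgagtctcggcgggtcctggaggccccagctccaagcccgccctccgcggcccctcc
The *Cish* window held 2 copies, the first beginning at the annotated start and the next 11 bases further on. The *Socs3* window held 1 copy, which began 154 bases before the start used for that window. This window lies inside the RefSeq span of *Socs3*, 117966079 to 117970336, so its start is not the farthest upstream end of the gene. The remaining window with a copy was 1 of 3 windows of *Prlr*, and none of the windows of *Ghr*, *Jak2*, *Stat3*, *Stat5a*, *Stat5b* and *Socs1* held one. *Stat5b*, *Stat5a* and *Stat3* lie next to each other on chromosome 11. These matches describe the sequence only.

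Between 17217 and 18572 of 45281 probes were detected per array. The median raw intensity was 151.1 to 179.6 on Pregnant arrays and 144.8 to 147.6 on Non-pregnant arrays, before normalisation. One array stood apart from its group. On the first principal component, which held 24.5% of the variance, Non-pregnant 4 scored 0.25, against -32.8 to -21.3 for the other Non-pregnant arrays and -7.29 to 20.6 for the Pregnant arrays. Its mean correlation was 0.981 with the Pregnant arrays and 0.978 with the other Non-pregnant arrays. Of all probes tested, 2.71% had Non-pregnant 4 outlying from the other Non-pregnant arrays by Dixon's gap ratio, against 0.634% to 1.39% for each of the others. Its probe detection and raw median lay within the range of the other arrays. The results were therefore given with all 12 arrays first and then without that array. Since it was picked from these same data, the p-values without it are descriptive only. The somatotroph and lactotroph hormones *Gh* and *Prl*, which define the tissue, were detected on every array at mean log2 intensities above 15.

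With all 12 arrays, no member was called higher and no member was called lower in Pregnant pituitaries, where a call needed an adjusted p under 0.05 in limma and a fold of 1.25 or more. In the series as a whole 163 of 10802 named genes (1.51%) were called higher and 169 (1.56%) lower. At an unadjusted p under 0.05 stood 3 of the 11 member probes, those of *Socs2* and both of *Stat5a*, and 17% of all probes did so. None of the 11 probes had groups that did not overlap, against 2.95% of all probes.

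**Figure D1:**
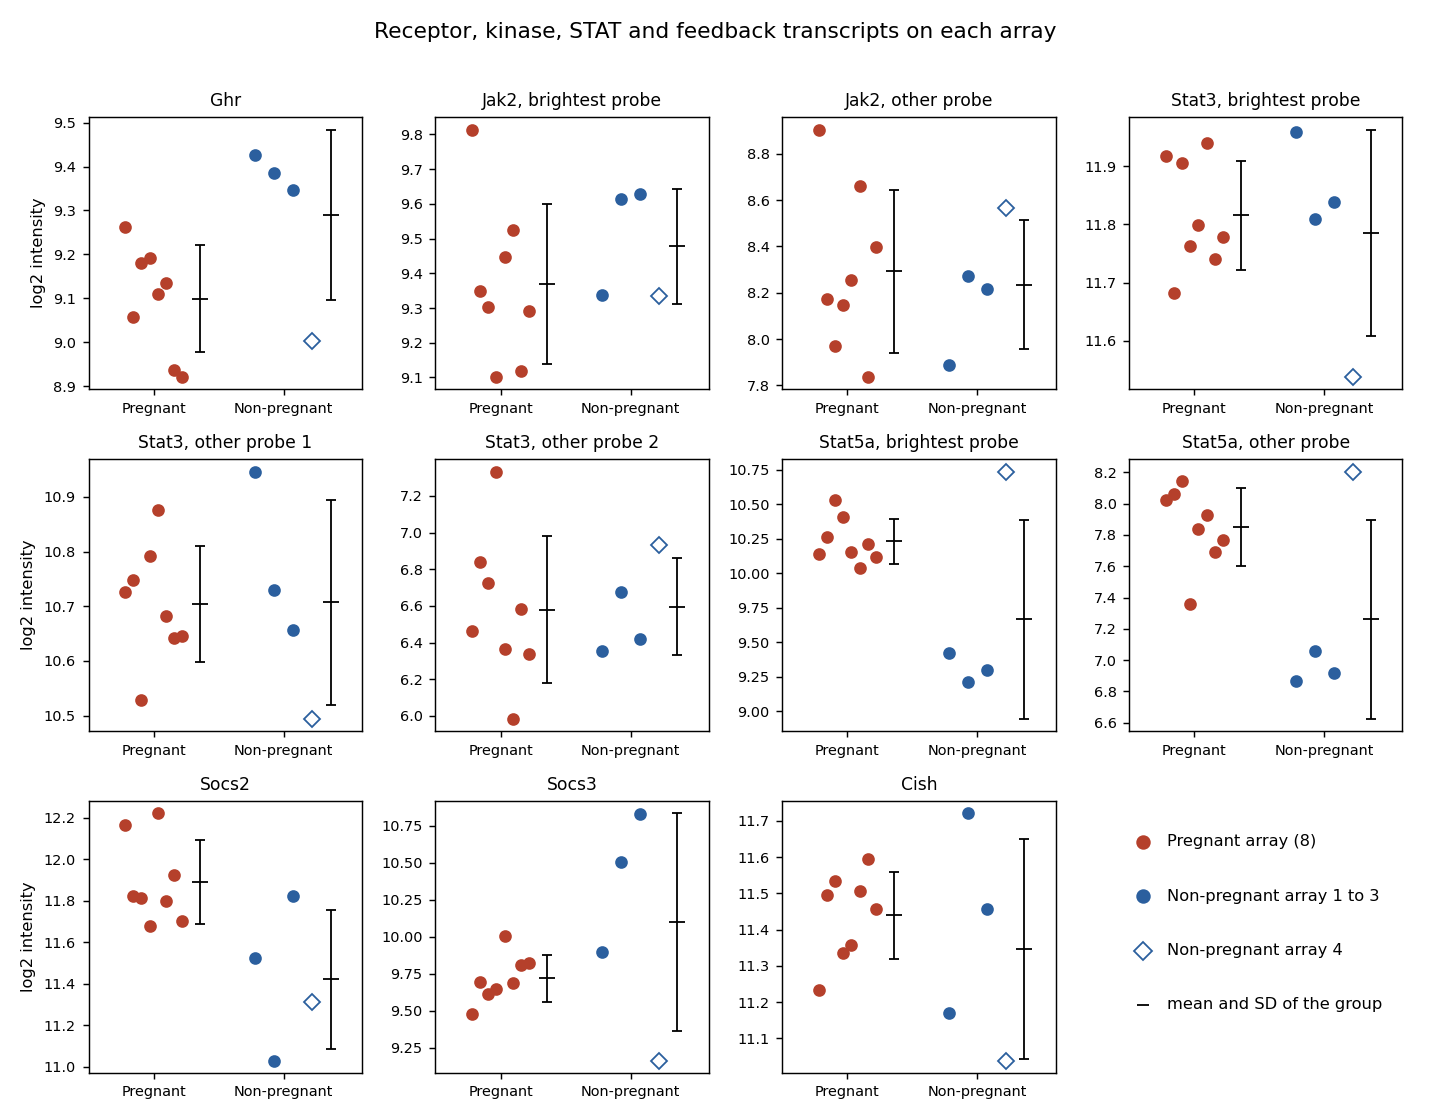
Normalised log2 intensity (vertical axes, each panel with its own range) of the 11 member probes on 8 Pregnant arrays (red) and 4 Non-pregnant arrays (blue, with array 4 as an open diamond); black bars are the mean and SD of each group. Both *Stat5a* panels have the diamond above all Pregnant arrays and the other Non-pregnant arrays under them.

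*Ghr*, the growth hormone receptor, read lower in every Pregnant pituitary than in 3 of the 4 Non-pregnant ones, by a small margin that missed the test. Its log2 intensity ran between 8.92 and 9.26 with a median of 9.12 on Pregnant arrays, and was 9.43, 9.38, 9.35 and 9.00 on Non-pregnant arrays 1 to 4. All Pregnant arrays lay under Non-pregnant 1, 2 and 3, whereas Non-pregnant 4 lay among the lowest arrays. The means were 9.10 ± 0.12 in Pregnant (SD, n = 8) and 9.29 ± 0.19 in Non-pregnant (SD, n = 4). The change was -0.19 ± 0.10 on the log2 scale (SE), with a 95% interval of -0.41 to 0.03, an adjusted p of 0.372 in limma and an exact two-sided permutation p of 0.0687 over 495 splits. Without Non-pregnant 4 the groups did not overlap, as for 9.56% of all probes then, and the change was -0.29 ± 0.10 with an adjusted p of 0.0988 in limma, which was not a call.

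The other *Ghr* probes did not pass the detection filter. One, for another *Ghr* transcript, was detected on Non-pregnant 2 and Non-pregnant 3 only, and the other was detected on 0 of 12 arrays. Over the 12 arrays, the named genes whose pattern was most like that of *Ghr* were *Nme5* (Pearson r = 0.96), *Wwp2*, a ubiquitin ligase (r = 0.95), and *Prkacb*, a catalytic subunit of protein kinase A (r = 0.95), out of 10801 searched. Each of these correlations pools both groups and shares the same normalised arrays, and none of the 3 genes was called.

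*Jak2*, the kinase bound to both receptors, did not pass the test. Its brightest probe lay between 9.10 and 9.81 with a median of 9.33 on Pregnant arrays, and was 9.34, 9.61, 9.63 and 9.33 on Non-pregnant arrays 1 to 4. The groups overlapped, and both the highest and the lowest arrays were Pregnant. The change was -0.11 ± 0.13 (95% interval -0.38 to 0.17, adjusted p = 0.722 in limma). A second probe, for another transcript of the gene, gave 0.06 ± 0.18 with an adjusted p of 0.906 in limma, and its Pregnant arrays ran from 7.84 to 8.90, against 7.89 to 8.57 on Non-pregnant arrays. The 2 remaining *Jak2* probes were detected on 0 of 12 arrays.

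*Stat3*, the STAT used mainly by the interleukin-6 and leptin receptor families, was the member with the smallest differences. Its brightest probe had log2 intensities of 11.68 to 11.94 with a median of 11.79 on Pregnant arrays, and of 11.96, 11.81, 11.84 and 11.54 on Non-pregnant arrays 1 to 4. Every Pregnant array lay inside the Non-pregnant range. The change was 0.03 ± 0.10 with a 95% interval of -0.18 to 0.23 (adjusted p = 0.909 in limma), so that this probe bounded a difference in either direction to under 1.25-fold. The other *Stat3* probes gave -0.00 ± 0.10 and -0.02 ± 0.20, with adjusted p-values of 0.994 and 0.978 in limma.

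*Stat5a*, the principal STAT of prolactin signalling in the mammary gland, was higher in Pregnant pituitaries than in 3 of the 4 Non-pregnant ones. On its brightest probe Pregnant arrays read 10.04 to 10.53 with a median of 10.18, and Non-pregnant arrays 1 to 4 read 9.42, 9.21, 9.30 and 10.74. Non-pregnant 4 was the highest of all 12 arrays, while the other Non-pregnant arrays lay under every Pregnant array. The second probe had the same order of groups, with 7.36 to 8.14 and a median of 7.88 on Pregnant arrays, and 6.87, 7.06, 6.91 and 8.21 on Non-pregnant arrays 1 to 4.

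Over all arrays the *Stat5a* means were 10.23 ± 0.16 in Pregnant (SD, n = 8) and 9.67 ± 0.72 in Non-pregnant (SD, n = 4) on the brightest probe. The change was 0.57 ± 0.22 (95% interval 0.10 to 1.04), or 1.48-fold, with an adjusted p of 0.201 in limma and an exact permutation p of 0.0404. The second probe gave 0.59 ± 0.22, an adjusted p of 0.168 in limma and an exact permutation p of 0.0566. Neither passed the test. Without Non-pregnant 4 both probes passed it and the groups no longer overlapped: the brightest probe changed by 0.92 ± 0.11, or 1.90-fold, with an adjusted p of 0.00127 in limma, and the second by 0.91 ± 0.15, or 1.87-fold, with an adjusted p of 0.00417 in limma. In that comparison 3.7% of named genes were called higher and 4.4% lower, against 1.51% and 1.56% with all 12 arrays. Non-pregnant 4 was left out for its place in these same data, so these p-values are descriptive. Leaving out any other single array kept the change of the brightest probe positive, with no call.

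Non-pregnant 4 was set beside the marker lists, since its *Stat5a* level decided the call. Its place differed from list to list. On the red cell list, in which all 5 measured genes were called higher, it read -1.51 as mean log2 deviation, against 0.14 to 1.44 on Pregnant arrays and -1.18 to -1.09 on the other Non-pregnant arrays, and so lay farther from the Pregnant arrays than those did. On the immediate early list it read 0.55, above the Pregnant range of -0.82 to 0.12. That list takes in *Npas4* and *Btg2*, detected on 0 and 1 of 8 Pregnant arrays, so nothing is read from this separation. On the lists of 4 lactotroph and 5 somatotroph genes no gene was called, and the mean deviations ran from -0.17 to 0.04 and from -0.18 to 0.25 on Pregnant arrays, against -0.00 to 0.29 and -0.02 to 0.19 on Non-pregnant arrays. Non-pregnant 4 was inside the Pregnant range on both, and on the lactotroph list its -0.00 was the only Non-pregnant value inside it. The 2 lists include *Prl* and *Gh*, whose normalised values follow their rank among the brightest probes. On the list of 6 stem and folliculostellate genes, none of them called, it read -0.04, within the Pregnant range of -0.15 to 0.09, whereas the other Non-pregnant arrays read 0.10 to 0.20. On the list of 6 gonadotroph genes, 1 of which was called lower, it read -0.33 and was the lowest of all 12 arrays. The range was -0.18 to 0.13 on Pregnant arrays and 0.06 to 0.27 on the other Non-pregnant arrays. Single genes of that list differed. *Fshb* read 6.86 on Non-pregnant 4, under 9.04 to 10.64 on the other Non-pregnant arrays and 9.65 to 11.20 on Pregnant arrays. *Lhb*, the called gene, read 11.84 on Non-pregnant 4. The other Non-pregnant arrays read 11.66 to 11.94 for *Lhb*, and Pregnant arrays 10.70 to 11.18. The part of cell composition in the *Stat5a* values was not tested. The genes nearest to *Stat5a* in pattern over the 12 arrays, listed after its values were seen, were *Atl3* (Pearson r = 0.95), *Chchd4* (r = 0.93) and the proteasome subunit *Psmb7* (r = 0.92), none of them called. By rank the relations were 0.94, 0.78 and 0.76 (Spearman rho). These correlations pool both groups, and Pearson r gives weight to the extreme *Stat5a* value of Non-pregnant 4.

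*Stat5b*, the closest relative of *Stat5a* and the main STAT of growth hormone signalling in liver, had 1 probe, which was detected on 0 of 12 arrays. Its normalised values were 4.80 to 5.21 on Pregnant arrays and 4.77 to 5.03 on Non-pregnant arrays, at the level of the negative controls. No difference could be measured there, and a single probe at background does not show that the transcript was absent.

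**Figure D2:**
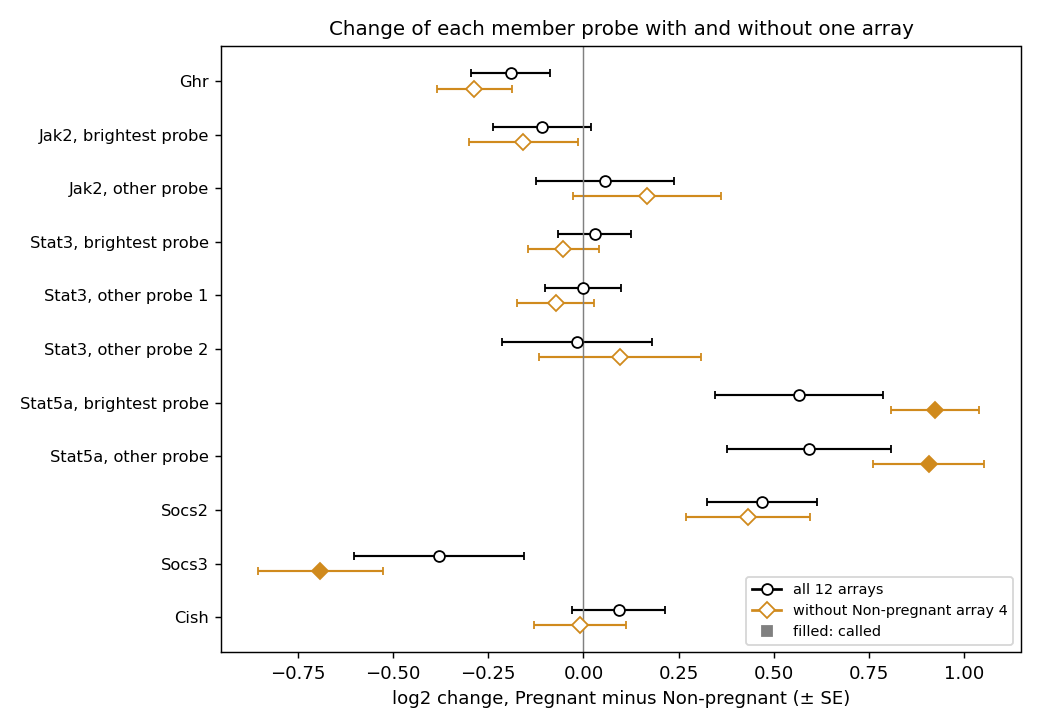
Log2 change, Pregnant minus Non-pregnant, with its SE, for each of the 11 member probes, with all 12 arrays (black circles) and without Non-pregnant 4 (orange diamonds); filled symbols passed the test. The filled symbols are both *Stat5a* probes, at 0.92 and 0.91, and *Socs3*, at -0.69, all without that array.

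The feedback genes gave changes of both signs, 0.47 for *Socs2*, -0.38 for *Socs3* and 0.09 for *Cish* on the log2 scale, and none passed the test with all arrays. *Socs2* is known for limiting growth hormone signalling. Its log2 intensity was 11.68 to 12.22 with a median of 11.82 on Pregnant arrays, and was 11.53, 11.03, 11.82 and 11.31 on Non-pregnant arrays 1 to 4. Non-pregnant 3 lay inside the Pregnant range and the other Non-pregnant arrays lay under all Pregnant arrays, so that 4 of 8 Pregnant arrays exceeded every Non-pregnant array. The means were 11.89 ± 0.20 in Pregnant (SD, n = 8) and 11.42 ± 0.34 in Non-pregnant (SD, n = 4).

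The *Socs2* change was 0.47 ± 0.14 (95% interval 0.16 to 0.78), or 1.38-fold, with an adjusted p of 0.101 in limma and an exact permutation p of 0.0202. It had the lowest unadjusted p of the 11 member probes (0.00536) and stood at rank 987 of 18626. In contrast to *Stat5a*, the value was nearly the same without Non-pregnant 4, at 0.43 ± 0.16 with an adjusted p of 0.127 in limma. Over the 12 fits that left out 1 array each, it ran from 0.34 without Non-pregnant 2 to 0.60 without Non-pregnant 3, and in none of them was it called. The second *Socs2* probe was detected on 0 of 12 arrays.

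*Socs3*, the inhibitor of interleukin-6 type receptors, varied far more among Non-pregnant than among Pregnant pituitaries. Pregnant arrays read 9.48 to 10.01 with a median of 9.69, and Non-pregnant arrays 1 to 4 read 9.90, 10.50, 10.83 and 9.16. Non-pregnant 2 and 3 lay above every Pregnant array, Non-pregnant 1 lay inside their range and Non-pregnant 4 lay under them all. The means were 9.72 ± 0.16 in Pregnant (SD, n = 8) and 10.10 ± 0.73 in Non-pregnant (SD, n = 4).

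The *Socs3* change was -0.38 ± 0.22 (95% interval -0.85 to 0.10), with an adjusted p of 0.415 in limma and an exact permutation p of 0.174. Without Non-pregnant 4 it was -0.69 ± 0.16, or 1.61-fold lower in Pregnant, with an adjusted p of 0.0272 in limma, which was a call, although Non-pregnant 1 still lay inside the Pregnant range. Without Non-pregnant 3 it was -0.13. Its value and its call thus rested on single Non-pregnant arrays.

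*Cish*, the inhibitor most directly induced by STAT5, read 11.23 to 11.59 with a median of 11.48 on Pregnant arrays, and 11.17, 11.72, 11.46 and 11.04 on Non-pregnant arrays 1 to 4. The Non-pregnant arrays lay on both sides of the Pregnant ones. The change was 0.09 ± 0.12 with a 95% interval of -0.17 to 0.35 (adjusted p = 0.753 in limma), and without Non-pregnant 4 it was -0.01 ± 0.12. *Socs1*, an inhibitor of JAK kinases best known from interferon signalling, had 1 probe, which was detected on Non-pregnant 2 only, and its normalised values were 5.29 to 5.73 on Pregnant arrays and 5.28 to 6.31 on Non-pregnant arrays. It was not tested.

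**Figure D3:**
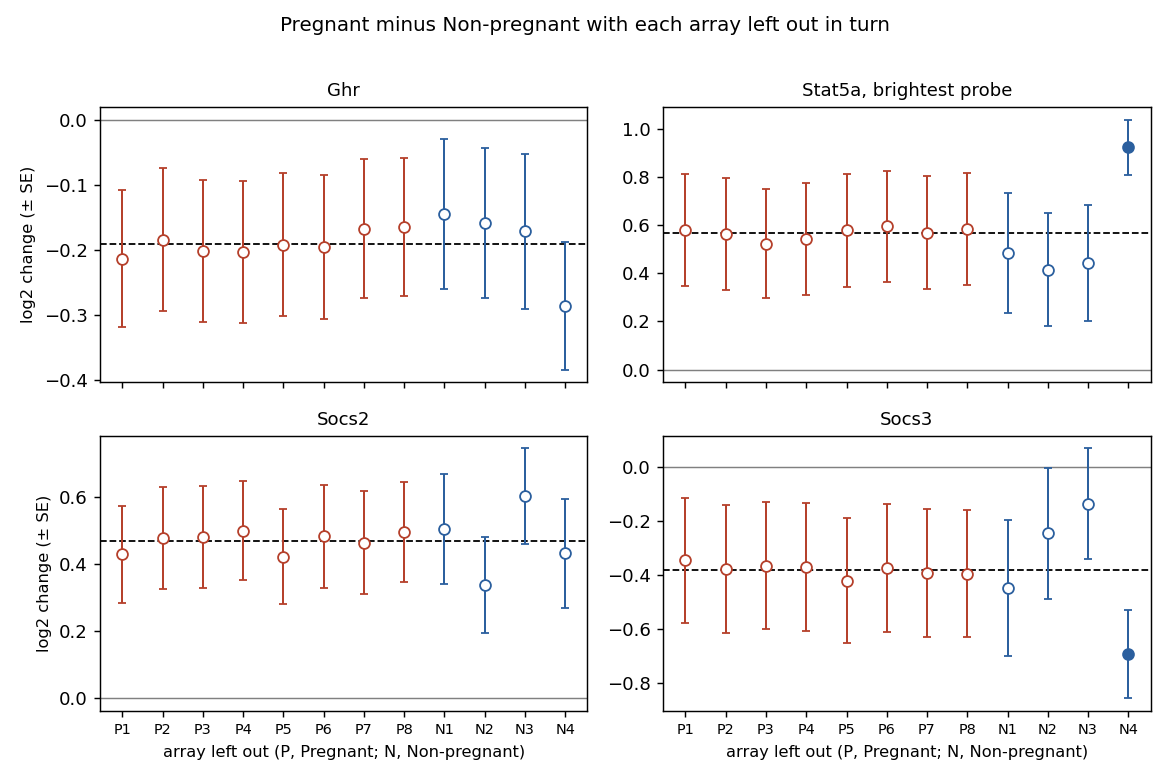
Log2 change, Pregnant minus Non-pregnant, with its SE, for *Ghr*, the brightest *Stat5a* probe, *Socs2* and *Socs3* when each array in turn was left out (horizontal axis, Pregnant arrays red, Non-pregnant arrays blue); the dashed line is the value with all 12 arrays and filled points passed the test. *Stat5a* reaches 0.92 and *Socs3* -0.69 without Non-pregnant 4, and *Socs2* stays between 0.34 and 0.60.

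Immediate early genes, which are induced within minutes of cell stimulation, were set beside the feedback genes. Of 18 measured, 8 were called lower in Pregnant pituitaries, and the other 10 were not called. Among the 8, *Npas4* was detected on 0 of 8 Pregnant arrays and *Btg2* on 1 of 8, so that both passed the detection filter mainly through the Non-pregnant arrays and nothing is read from the count over all 18. Of the 14 genes detected on all 12 arrays, 5 were called lower, namely *Arc*, *Egr1*, *Egr4*, *Fosb* and *Junb*, with a median change of -1.27 over the 14. Of the 9320 named genes so detected 1.44% were called lower. The mean log2 deviation of the list was -0.82 to 0.12 on Pregnant arrays, and 1.13, 0.08, 1.61 and 0.55 on Non-pregnant arrays 1 to 4. Non-pregnant 2 thus lay inside the Pregnant range. This mean is over all 18 genes, *Npas4* and *Btg2* among them, so nothing is read from its difference between the groups. Of the 3 feedback genes, *Socs3* had its highest value on Non-pregnant 3 and its lowest on Non-pregnant 4. The part of the immediate early response in the *Socs3* values was not tested.

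Within the Pregnant group, 6 relations were computed over the 8 arrays, each feedback gene with the others and with the immediate early list. The closest was that of *Socs2* with the list, at Pearson r = 0.77 (exact permutation p = 0.0238, adjusted over the 6 relations 0.143) and Spearman rho = 0.74 (exact permutation p = 0.0458, adjusted 0.275). Without the 2 arrays farthest from the median *Socs2* level, Pregnant 1 and Pregnant 5, r was 0.01, so the relation rested on them. The list mean also includes *Npas4*, *Btg2* and *Atf3*, which were detected on 0, 1 and 3 of the 8 Pregnant arrays and there add mostly background. *Socs2* with *Cish* gave r = -0.45 (exact permutation p = 0.261, adjusted 0.392) and rho = -0.05 (exact permutation p = 0.935, adjusted 0.935), and r was 0.91 without the same 2 arrays.

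The other relations did not pass either. *Socs2* with *Socs3* gave r = 0.18 (exact permutation p = 0.658, adjusted 0.658) and rho = 0.17 (exact permutation p = 0.703, adjusted 0.844), with r = 0.19 without Pregnant 1 and Pregnant 5. *Socs3* with *Cish* gave r = 0.26 (exact permutation p = 0.541, adjusted 0.649) and rho = 0.19 (exact permutation p = 0.665, adjusted 0.844), with r = 0.30 without Pregnant 1 and Pregnant 5, which were also the 2 arrays farthest from the median *Socs3* level. For *Socs3* with the immediate early list r was 0.45 (exact permutation p = 0.255, adjusted 0.392) and rho 0.29 (exact permutation p = 0.501, adjusted 0.844), with r = 0.47 without the same 2 arrays. For *Cish* with that list r was -0.58 (exact permutation p = 0.130, adjusted 0.389) and rho -0.52 (exact permutation p = 0.197, adjusted 0.590), with r = -0.73 without Pregnant 1 and Pregnant 4, the 2 arrays farthest from the median *Cish* level.

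**Figure D4:**
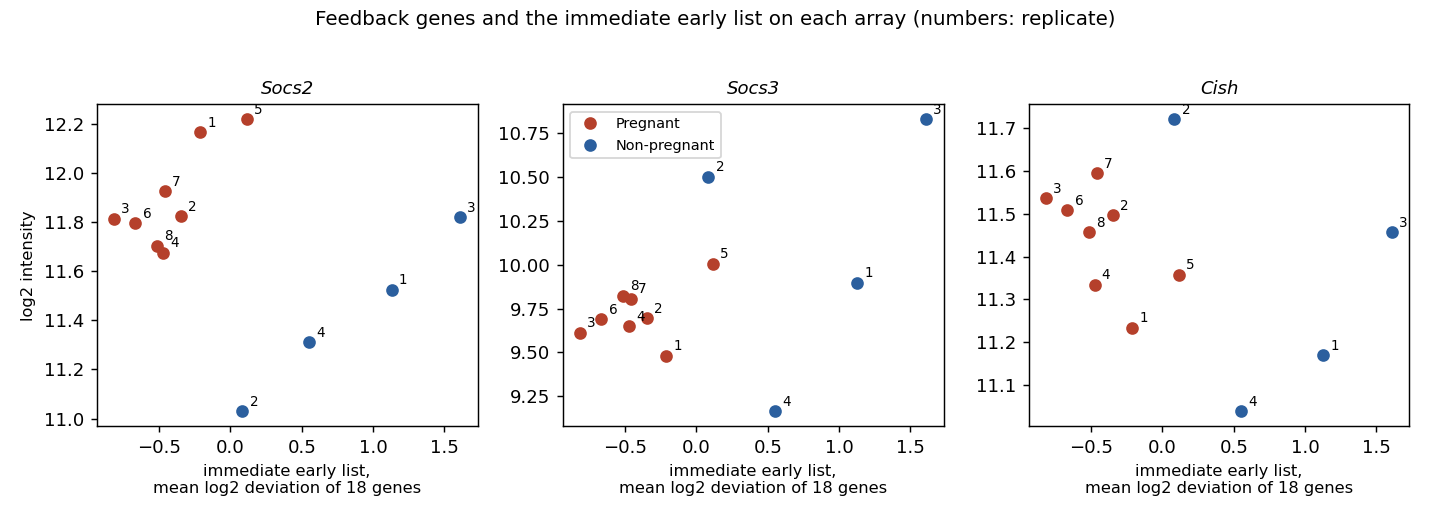
Normalised log2 intensity of *Socs2*, *Socs3* and *Cish* (vertical axes) against the mean log2 deviation of 18 immediate early genes (horizontal axis) on 8 Pregnant arrays (red) and 4 Non-pregnant arrays (blue), numbered by replicate. Pregnant 1 and 5 are the 2 highest arrays for *Socs2*, and Non-pregnant 3 is the highest for *Socs3*. The 18 genes include *Npas4* and *Btg2*, detected on 0 and 1 of the 8 Pregnant arrays.

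Outside the members, 100 genes of the pathway were listed in 7 groups, and 56 of them were measured. In Pregnant pituitaries 1 was called higher and 4 were called lower, or 8.93% of those measured, against 3.07% of all named genes in either direction. The lists were chosen with earlier results known, and nothing is read from the difference between these shares. Of the 49 pathway genes detected on all 12 arrays, 0 were called higher and 4 (8.16%) lower. Of the 9320 named genes so detected, 1.49% were called higher and 1.44% lower, and nothing is read from this difference either. The pathway genes called among the 56 measured were a STAT, a kinase, a receptor, an adaptor and a transcription factor. Each list held at most 1 call in a direction.

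Of 5 other JAK and STAT genes, *Stat4* was called higher and *Jak1* lower. *Stat4*, the STAT of interleukin-12 signalling in lymphocytes, read 5.88 to 6.68 on Pregnant arrays, and 5.32, 5.44, 5.69 and 5.81 on Non-pregnant arrays 1 to 4. It was a dim transcript, detected on 7 of 8 Pregnant and 1 of 4 Non-pregnant arrays, and so passed the detection filter through the Pregnant group, with Non-pregnant levels at or near background. The fitted change of 0.78 ± 0.14 (adjusted p = 0.00813 in limma) is therefore a call without an exact size, and nothing is read from the separation of the groups. Without background correction its change was 0.29, less than 1.25-fold. Of 11 white cell markers only *Cd79b*, *Camp* and *Lcn2* passed the detection filter, with *Cd79b* called higher, while the T cell markers *Cd3e*, *Cd3d* and *Cd8a* and the B cell marker *Ms4a1* did not pass it. The mean deviation of these 3 genes was -0.13 to 0.65 on Pregnant arrays and -0.58 to -0.19 on Non-pregnant arrays. *Camp*, detected on 6 of 8 Pregnant and 2 of 4 Non-pregnant arrays, and *Lcn2* were not called. The mean is therefore not read as a number of white cells, and its part in the *Stat4* values was not tested.

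*Jak1*, the kinase of the interferon and interleukin-6 receptors, read 9.47 to 9.77 on Pregnant arrays, and 10.12, 10.14, 10.15 and 9.65 on Non-pregnant arrays 1 to 4. Non-pregnant 4 lay inside the Pregnant range and the other Non-pregnant arrays lay above it. The change was -0.43 ± 0.11 (adjusted p = 0.0479 in limma) and -0.55 without Non-pregnant 4 (adjusted p = 0.00437 in limma). Of the 12 fits that left out 1 array it was called in 2, without Pregnant 1 and without Non-pregnant 4, and in the others its adjusted p reached 0.172. A second *Jak1* probe gave -0.15 ± 0.19 and was not called. *Stat6* (-0.15), *Tyk2* (0.04) and *Stat2* (0.01) had adjusted p-values of 0.655, 0.906 and 0.988 in limma.

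Among 11 related cytokine receptors, *Ifngr2*, a chain of the interferon gamma receptor, was called lower on its brightest probe. It read 6.40 to 7.06 on Pregnant arrays, and 7.47, 7.43, 7.00 and 7.65 on Non-pregnant arrays 1 to 4. Non-pregnant 3 lay inside the Pregnant range. The change was -0.63 ± 0.15 (adjusted p = 0.0337 in limma), and its other probes gave -0.21 and -0.15 with no call. The call was lost without Pregnant 2, 3 or 6 and without Non-pregnant 1, 2 or 4, when the adjusted p reached 0.112. *Il13ra1* (-0.40, adjusted p = 0.106 in limma), *Osmr* (0.23, adjusted p = 0.320) and *Il3ra* (-0.26, adjusted p = 0.435) followed without a call.

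The hormones that these receptors bind were not called. *Gh* was the 13th to 34th brightest probe on Pregnant arrays and the 1st to 12th on Non-pregnant arrays. *Prl* was the 2nd to 31st on Pregnant arrays and the 2nd to 7th on Non-pregnant arrays. At this end of the scale quantile normalisation sets a value by its rank among the brightest probes, so no size of change is given for either hormone. The cytokine *Ctf1* (-0.17) was the remaining ligand measured, and 10 of the 13 listed, among them *Lif*, *Il6*, *Lep* and the placental lactogens *Prl3d1* and *Prl3b1*, did not pass the filter or had no named probe. None of 11 other SOCS proteins and inhibitors was called with all arrays, with changes of -0.13 to 0.24 on their brightest probes. Those with the smallest p were the phosphatase *Ptpn6* (0.22, adjusted p = 0.291 in limma), a second probe of *Pias2* (0.30, adjusted p = 0.359) and a second probe of *Ptpn11* (-0.22, adjusted p = 0.378). Without Non-pregnant 4, *Ptpn2* was called higher (0.50, adjusted p = 0.0472 in limma, descriptive only).

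Of 9 adaptor genes, *Irs2*, which couples insulin and cytokine receptors to phosphoinositide 3-kinase, was called lower. It read 9.01 to 10.12 on Pregnant arrays, and 11.39, 9.96, 10.71 and 10.62 on Non-pregnant arrays 1 to 4. Non-pregnant 2 lay inside the Pregnant range. The change was -0.99 ± 0.25 with an adjusted p of 0.0499 in limma, just inside the threshold, and of the 12 fits that left out 1 array it was called in 3, without Pregnant 1, Pregnant 4 and Non-pregnant 2. The adjusted p was 0.0518 without Non-pregnant 4 and reached 0.170 without Non-pregnant 1. *Gab1* (-0.41, adjusted p = 0.0852 in limma), a second probe of *Nek3* (-0.38, adjusted p = 0.160) and *Tec* (-0.43, adjusted p = 0.163) were not called, although *Gab1* and *Tec* were called lower without Non-pregnant 4.

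Target genes of the STATs had list medians near that of all genes. None of 8 measured STAT5 targets was called, and their median change was -0.00, beside -0.01 for all named genes. Those with the smallest p were a second probe of the cyclin *Ccnd2* (-0.38, adjusted p = 0.125 in limma), whose brightest probe gave 0.07, the repressor *Bcl6* (-0.21, adjusted p = 0.454) and *Igf1* (-0.24, adjusted p = 0.476). Of the 8 STAT5 targets, *Bcl2l1* was detected on 2 of 8 Pregnant and 2 of 4 Non-pregnant arrays. *Pim1* was detected on 4 and 2, *Pim2* on 5 and 2 and *Tnfsf11* on 5 and 3. For these dim genes a change could hardly be measured, so the list median does not show that STAT5 output was unchanged. The milk protein genes *Csn2* and *Wap*, classical STAT5 targets of the mammary gland, did not pass the filter or had no named probe. Of 11 STAT3 targets, with a median of -0.03, *Junb* was called lower. It read 10.62 to 12.14 on Pregnant arrays, and 12.78, 12.84, 13.97 and 11.63 on Non-pregnant arrays 1 to 4, a change of -1.70 ± 0.33 (adjusted p = 0.0146 in limma). The call was lost without Non-pregnant 1 and without Non-pregnant 3, when the adjusted p reached 0.0579. *Junb* is also on the immediate early list. *Cebpd* (0.45, adjusted p = 0.0742 in limma), *Fos* (-1.69, adjusted p = 0.309) and *Osmr* followed without a call. Without Non-pregnant 4, *Junb* was still called lower (-2.09), and *Gadd45g* was called higher on both probes. They gave 0.55 (adjusted p = 0.0471 in limma) and 0.67 (adjusted p = 0.0121), against 0.23 and 0.09 with all arrays. These p-values without Non-pregnant 4 are descriptive.

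**Figure D5:**
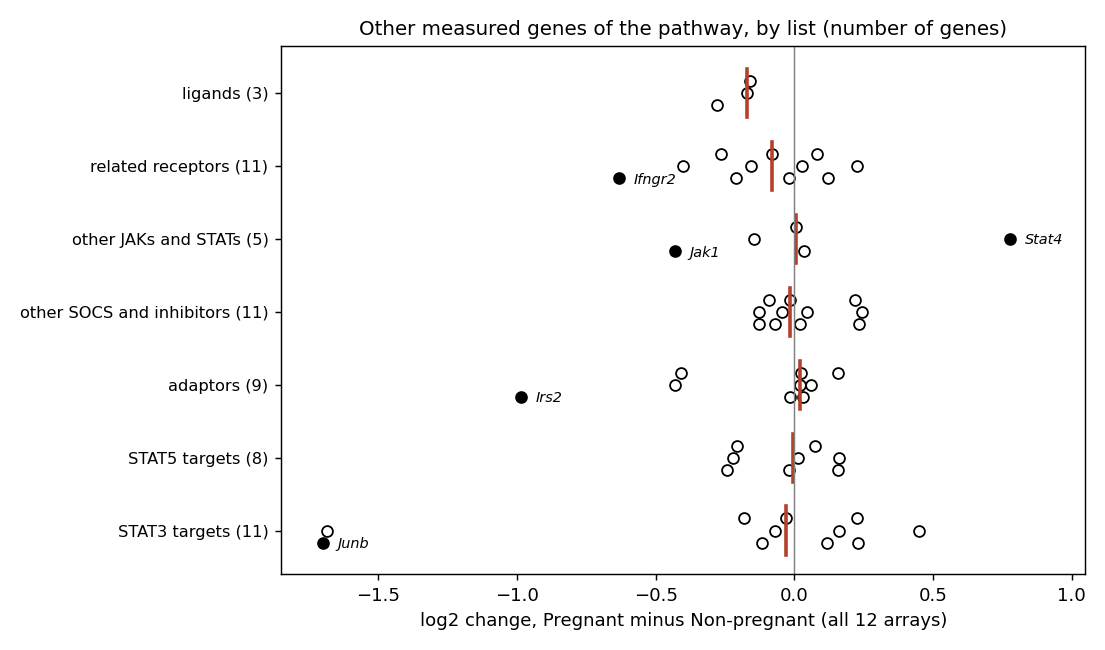
Log2 change, Pregnant minus Non-pregnant with all 12 arrays (horizontal axis), of the brightest probe of each measured pathway gene outside the members, in 7 lists with the number of genes in parentheses; filled circles were called and red bars are list medians. The 5 filled circles are *Stat4* at 0.78, *Jak1* at -0.43, *Ifngr2* at -0.63, *Irs2* at -0.99 and *Junb* at -1.70. The ligands include *Gh* and *Prl*, for which no size of change is read.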

How the data were processed

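The authors deposited signal intensity values on a linear scale, not background-subtracted, for 45281 probes, each with a detection p-value against negative control beads. They also deposited a table of normalised intensity values made with lumi, of which no version is given, used only as an alternative. Background was corrected here by normexp from the detection p-values (offset 16) in limma 3.58.1 under R 4.3.3, followed by quantile normalisation and log2. Probes took their gene from the platform annotation (1 symbol for 34885 probes, several for 18, none for 10378), with 34807 symbols updated through RefSeq. Probes detected on at least 4 arrays were tested, and the brightest represents its gene. The groups were compared by lmFit and eBayes, Benjamini-Hochberg adjusted over 18626 probes, and every adjusted p is from limma unless named otherwise. Single probes were also tested by exact permutation in SciPy 1.17.1 (Python 3.11.15). The fit was tested on simulated data. Intervals are unadjusted, and the number of arrays limits the precision.

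Every kept member probe is described. Of each pathway list the called genes and up to 3 more with the smallest p are named, and *Ghr* is given with its 3 likest genes. Members and lists were chosen with earlier results of these data known. Alternatives were other background corrections, scalings, filters, eBayes settings, array weights, averaged probes, the deposited normalised table, each array left out and a block on the replicate number.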

Additional observations from a re-analysis of the deposited data

Results flagged for a closer look

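In *Stat5a*, Non-pregnant 4 lay far from the other Non-pregnant arrays on both probes. On the brightest probe it read 10.7374, against 9.41909 for the nearest of the other 3 arrays, a gap that took 0.864 of the range of the group. On the second probe it read 8.20597, against 7.05514, a gap of 0.860 of the range. Both probes measure the same transcript, so they are not independent. The test was run on 22 groups of values, and chance marks about 5% of groups. Over all probes tested 5.88% had an outlying array in the Non-pregnant group. The cause was not tested.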

How the results depend on the processing

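With all arrays, 0 members were called in either direction under every alternative except these. With trend and robust eBayes 1 member was higher, *Socs2* (adjusted p = 0.0471 in limma). With array weights 1 was higher, *Stat5a* (0.77 and 0.78), and 1 was lower, *Socs3* (-0.68), while all genes called numbered 544 higher and 646 lower. Leaving out 1 array gave 0 to 1 member higher and 0 to 1 lower, the calls arising without Non-pregnant 4. Of pathway genes, 0 were higher among probes detected on all arrays, which drops *Stat4*, and 2 with trend and robust eBayes. Without background correction and in the deposited table the 1 higher was *Cebpd*, not *Stat4*. Pathway genes lower numbered 1 with no detection filter, 7 with array weights and 2 with probes averaged. Leaving out 1 array gave 1 to 3 higher and 0 to 4 lower. All genes called without Non-pregnant 1 were 75 higher and 61 lower, and without Non-pregnant 3 they were 59 and 54. No call among *Jak1*, *Ifngr2*, *Irs2* and *Junb* remained without Non-pregnant 1.

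Small changes turned sign. With array weights *Stat3* gave -0.018 on its brightest and 0.052 on its dimmest probe. Over the fits without 1 array, the *Stat3* probes ran from -0.053 to 0.087, -0.073 to 0.078 and -0.12 to 0.096, the second *Jak2* probe from -0.059 to 0.17 and *Cish* from -0.0096 to 0.22. The correlation of *Socs2* with *Cish* was 0.035 under median scaling. Without 1 Pregnant array, r ran from -0.59 to 0.78 for *Socs2* with *Socs3*, from -0.28 to 0.70 for *Socs3* with *Cish* and from -0.24 to 0.84 for *Socs3* with the immediate early list.

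Replicate numbers were not taken to pair the arrays, since deviations of same-numbered arrays correlated at 0.16, 0.06, 0.01 and 0.20, not all over 0.1. Number 4 was the best match for both of its arrays, and numbers 2 and 3 for neither. So few values cannot show that no pairing exists. With the replicate block on numbers 1 to 4, 0 members were called, pathway genes were 0 higher and 1 lower, and the dimmest *Stat3* probe gave 0.25. The same arrays with no block, a comparison added after seeing the data, gave 0 members, 0 pathway genes higher, 0 lower and again 0.25. That value had to be the same, since each number occurs in both groups. The causes of these differences were not tested.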
